A study of Mus musculus with 14 samples.

Results

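Cumulus cells, the somatic cells that surround the ovulated oocyte, were compared with 1-cell embryos made by in vitro fertilisation (IVF). The comparison uses 4 of the 14 RNA-seq libraries of the series, 2 of cumulus cells and 2 of IVF 1-cell embryos, chosen by their labels, and takes all genes. Each cumulus library was made from about 1000 cells, and the embryo libraries from pools of 32 and 31 embryos. In the wider study the cumulus cells supplied nuclei for somatic cell nuclear transfer (SCNT). The females that gave the cumulus cells had been superovulated with PMSG and hCG, and hyaluronidase was used to free the cells from complexes taken from the oviduct. The strain label of the cumulus cells is (C57BL/6J x CAST/EiJ) F1, whereas the growth protocol names adult BDF1 females, and the sources used here do not settle which holds. The embryos came from C57BL/6J oocytes and CAST/EiJ sperm, and the sources used here do not state their age in hours. Nothing in the labels says that the 2 libraries of a group came from separate animals or experiments, so p-values measure only a spread between libraries. That spread was estimated from the replicates of all 7 groups of the series (14 libraries), not from these 4 libraries alone. Amount of input, read depth and cell type differ together between the groups and cannot be told apart. If the growth protocol holds, strain differs with them too. The strain label names the same parental strains as the embryos. The embryos came from C57BL/6J oocytes, however, so the strain of the RNA need not match under either reading.

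A fully grown oocyte has stopped most transcription and carries a store of maternal messenger RNA, which the newly fertilised embryo uses and degrades before its own genome becomes active. Cumulus cells are transcriptionally active granulosa-derived cells. They pass metabolites to the oocyte through gap junctions, answer the ovulatory surge of luteinising hormone by laying down an expanded hyaluronan matrix, and turn towards progesterone synthesis. Oocyte and cumulus cells also signal to each other with secreted factors and membrane ligands, so that a ligand and its receptor are often made on opposite sides.

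The deposited values are FPKM, a read count divided by transcript length and library total, so levels are relative to each library's own total. Read totals were not used here, but the spacing of low values put the 2 cumulus libraries at 0.590 and 0.586 of the depth of the deepest library, and the 2 IVF libraries at 1.00 and 0.929. Replicates had rank correlations across genes of 0.985 for cumulus cells and 0.988 for IVF 1-cell embryos. Some genes with near-identical copies in the genome had very low values in every library, for instance Gapdh at 0.151 and 0.0915 FPKM in cumulus cells, against 0.0179 and 0 FPKM in embryos. A value of 0 or near 0 can therefore be a failed estimate, and genes with over 30% of their 50-base stretches found in another gene are named as uncertain.

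The transcriptomes differed at most genes. The filter kept 13452 genes that reached 1 FPKM in 2 or more of the 14 libraries. Of these, 5701 (42.4%) were higher in cumulus cells and 4780 (35.5%) were lower, by limma on log2(FPKM + 1) at an adjusted p of 0.05. With at least 2-fold also required, 4619 (34.3%) were higher and 3737 (27.8%) lower. At 10-fold, the counts were 949 (7.05%) higher and 934 (6.94%) lower. The median difference of all genes tested was 0.13 on the log2 scale, and the range ran from 13.41 for Spp1 to -11.74 for Btg4. A set of 692 genes averaged 10 FPKM or more in cumulus cells while both IVF libraries were under 1, and 569 genes had the opposite pattern. More genes were detected in cumulus cells, with 9912 and 9996 genes at 1 FPKM or above, against 8450 and 8493 in embryos. At 100 FPKM or above the order turned, with 434 and 386 genes in cumulus cells, against 577 and 582 in embryos. The most abundant gene held 6.21% and 4.89% of summed FPKM in cumulus cells, against 2.60% and 2.62% in embryos. Differences also moved with base composition: of 5 groups of equal size by GC content of the transcript, the lowest had a median difference of -0.39 and the highest 0.87, and the part of base composition in the results was not tested. All 234 called genes picked for naming had no overlap between the values of the 2 cumulus libraries and those of the 2 embryo libraries. The same held for 12394 of the 13452 genes tested, and 77.9% of genes tested were called in either direction. For the genes with the greatest differences no overlap was itself a condition of naming, so that this count is not evidence.

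**Figure D1:**
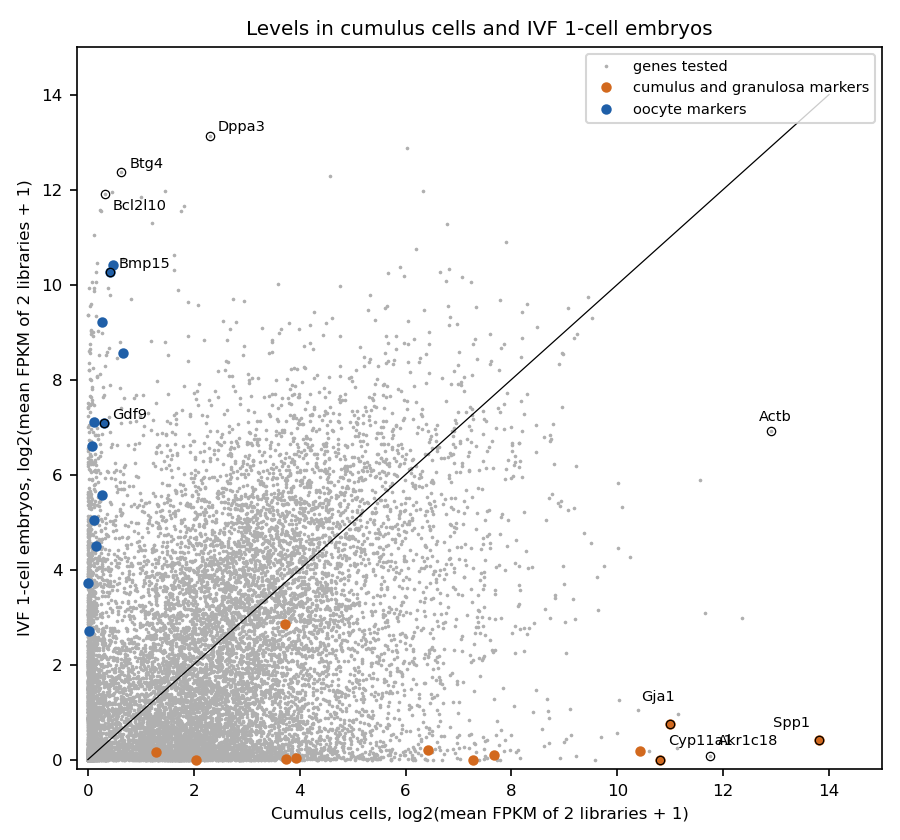
Each point is a gene, with log2(mean FPKM + 1) over 2 cumulus libraries on the horizontal axis and over 2 IVF 1-cell libraries on the vertical axis. The line marks equal levels, circles mark the genes named. All 12 oocyte markers lie along the left edge, and 11 of the 12 cumulus and granulosa markers lie along the lower edge, Nr5a2 being the exception.

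Marker genes were set beside the labels. The marker lists were chosen with earlier results of these data known, so they are not an independent check. The 12 cumulus and granulosa markers summed to 23119 and 17097.5 FPKM in cumulus cells, against 7.78 and 7.75 FPKM in embryos. All 12 were higher in cumulus cells. Most of the cumulus sum was Spp1, at 16696 and 12147 FPKM. The 12 oocyte markers summed to 2.05 and 2.58 FPKM in cumulus cells, against 4065 and 4026 FPKM in embryos, and all 12 were lower. The 5 theca markers summed to 4.80 and 3.49 FPKM in cumulus cells, against 7.63 and 8.07 FPKM in embryos, and Cyp17a1, the theca enzyme of androgen synthesis, had 0.0190 and 0.0767 FPKM in cumulus cells, against 0.0112 and 0.0846 FPKM in embryos. The 7 markers of oviduct epithelium summed to 11.3 and 4.40 FPKM in cumulus cells, against 9.26 and 8.73 FPKM in embryos, and of 3 tested 1 was higher and 2 were lower. The higher one was Ovgp1, a glycoprotein secreted by the oviduct, at 10.3 and 3.37 FPKM in cumulus cells, against 0.491 and 0.213 FPKM in embryos, with 35.8% of its stretches shared, so that it is uncertain. Foxj1, of ciliated epithelium, had 0 and 0.0132 FPKM in cumulus cells, against 0 and 0 FPKM in embryos. Of 13 immune markers, 6 passed the filter, of which 5 were higher in cumulus cells and 1, H2-Aa, was lower. The sum of the 13 was 247.8 and 135.8 FPKM in cumulus cells, against 18.2 and 14.3 FPKM in embryos. Most of it was Cd52, a small surface glycoprotein, at 204 and 118 FPKM in cumulus cells, against 0.184 and 0.0659 FPKM in embryos. The pan-leukocyte gene Ptprc had 0.352 and 0.190 FPKM in cumulus cells, against 0 and 0 FPKM in embryos. Haemoglobin Hba-a2 had 28.5 and 0.730 FPKM in cumulus cells, against 0.0708 and 4.51e-04 FPKM in embryos, and Lyz2, of myeloid cells, had 15.6 and 2.46 FPKM in cumulus cells, against 0 and 0.0232 FPKM in embryos, so that the first cumulus library stood above the second in both. Hba-a2 was not called without the first cumulus library or the second embryo library, and 86.3% of the stretches of Hba-a2 are shared with another gene. The part of any other cells in the results was not tested. In bulk samples a smaller number of cells of a type and less RNA per cell cannot be told apart.

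The genes with the greatest positive differences included adhesion, steroid and stress genes. Spp1 (chromosome 5, 104864130 to 104870072, mm9), which encodes the secreted adhesion protein osteopontin, had 16696 and 12147 FPKM in cumulus cells, against 0.0700 and 0.602 FPKM in embryos (log2 difference 13.41, SE 0.43, adjusted p = 7.2e-11). Akr1c18, the enzyme that inactivates progesterone in the corpus luteum, had 3658 and 3215 FPKM in cumulus cells, against 0.114 and 0 FPKM in embryos (11.67, SE 0.38). Both were above 1000 FPKM in each cumulus library and under 1 in each embryo library. Gm2a, the activator protein of ganglioside breakdown in lysosomes, had 2228 and 2218 FPKM in cumulus cells, against 0.309 and 0.0733 FPKM in embryos. Nupr1, a nuclear protein induced by stress, had 2483 and 2076 FPKM in cumulus cells, against 0.826 and 1.08 FPKM in embryos. Akr1cl, an aldo-keto reductase gene, had 6295 and 4236 FPKM in cumulus cells, against 6.33 and 7.35 FPKM in embryos. It was among the most abundant genes of cumulus cells, together with Actb (cytoplasmic beta-actin), Malat1 (a long nuclear RNA) and Idh1 (cytosolic isocitrate dehydrogenase). Actb had 7659 and 7693 FPKM in cumulus cells, against 120.3 and 119 FPKM in embryos, Malat1 had 3086 and 3384 FPKM in cumulus cells, against 6.77 and 8.10 FPKM in embryos, and Idh1 had 3283 and 2765 FPKM in cumulus cells, against 58.4 and 57.3 FPKM in embryos. These 3 were above 5 FPKM in both embryo libraries, and each was higher in cumulus cells (log2 differences 5.99, 8.59 and 5.68). Ephx2 (soluble epoxide hydrolase) and the calcium-binding genes S100a6 and Anxa1 belonged to this group too, with log2 differences of 9.40, 9.22 and 9.11. Timp1, an inhibitor of matrix metalloproteinases, was at 857 and 680.3 FPKM in cumulus cells and listed at 0 in both embryo libraries.

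Steroid synthesis separated the cell types along most of its length, with aromatase on the other side. Of 20 listed genes 17 were tested, 14 were higher in cumulus cells and 2 lower, with a median difference of 3.87. Of all genes tested 42.4% were higher and 35.5% lower, with a median of 0.13. The counts of this and the later gene lists are to be read beside these shares. Cholesterol enters the mitochondrion with the help of Star, which had 21.9 and 23.2 FPKM in cumulus cells, against 0.0581 and 0.370 FPKM in embryos (4.29, SE 0.19). There Cyp11a1 (chromosome 9, 57862824 to 57874830, mm9), the side-chain cleavage enzyme, makes pregnenolone; it had 2238 and 1334 FPKM in cumulus cells and was listed at 0 in both embryo libraries. Its electron donor Fdx1 had 574 and 741 FPKM in cumulus cells, against 25.7 and 26.7 FPKM in embryos. Fdxr, which reduces Fdx1, had 40.7 and 43.7 FPKM in cumulus cells, against 0.0664 and 0.107 FPKM in embryos. Hsd3b1, which converts pregnenolone to progesterone, had 1652 and 1093 FPKM in cumulus cells, against 0.134 and 0.120 FPKM in embryos (10.22, SE 0.25, adjusted p = 1.2e-11). The libraries of the groups did not overlap for any of these, nor for 12394 of the 13452 genes tested. For these steroid genes cumulus cells were high throughout. Scarb1, the receptor that takes up cholesterol from high-density lipoprotein, had 101 and 75.7 FPKM in cumulus cells, against 4.12 and 3.88 FPKM in embryos. Nr5a1, a nuclear receptor that drives steroidogenic genes, had 6.42 and 6.76 FPKM in cumulus cells and was listed at 0 in both embryo libraries. Its relative Nr5a2 was present on both sides, at 10.04 and 14.5 FPKM in cumulus cells, against 6.36 and 6.10 FPKM in embryos (0.85, SE 0.29, adjusted p = 0.016), a call that was lost without the second cumulus library or either embryo library. Cyp19a1, the aromatase that makes oestrogen, fell to 0.388 and 0.275 FPKM in cumulus cells, against 7.45 and 8.76 FPKM in embryos (-2.77, SE 0.25). Stard4, a cholesterol carrier of the cytosol, was the other lower member, and Npc1, of the lysosomal cholesterol exit pathway, was not called.

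Genes of cholesterol synthesis were mostly higher in cumulus cells. Of 23 genes 22 were tested, 18 were higher and 2 lower, with a median of 1.80. Cyp51, a sterol demethylase, had 10.1 and 14.2 FPKM in cumulus cells, against 0.182 and 0.0716 FPKM in embryos, and Ebp, a sterol isomerase, had 25.7 and 24.6 FPKM in cumulus cells, against 1.20 and 0.502 FPKM in embryos. Cumulus values were the higher ones for both. Insig1, which holds sterol-sensing proteins in the endoplasmic reticulum, ran the other way with 11.4 and 27.9 FPKM in cumulus cells, against 153 and 148 FPKM in embryos (-3.00, SE 0.28). Idi1, the isomerase of isopentenyl diphosphate, was lower at 0.339 and 0.743 FPKM in cumulus cells, against 1.93 and 2.41 FPKM in embryos. Hmgcs1 was listed at 0 in all 4 libraries.

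Genes of the ovulatory response had mostly moderate levels. Of 20 genes 17 were tested, 14 were higher and 2 lower, with a median of 2.10. Fshr, the receptor of follicle-stimulating hormone, had 9.02 and 7.34 FPKM in cumulus cells, against 0.239 and 0.156 FPKM in embryos. Lhcgr, the receptor of luteinising hormone, had 2.10 and 7.66 FPKM in cumulus cells, against 0 and 0.0758 FPKM in embryos, and the 2 cumulus libraries differed more for it than for Fshr. Ptgs2, which makes the prostaglandins of ovulation, had 18.2 and 16.7 FPKM in cumulus cells, against 0.112 and 0.0151 FPKM in embryos (4.12, SE 0.20). Runx1, a transcription factor induced at ovulation, had 43.4 and 61.7 FPKM in cumulus cells, against 0.153 and 0.166 FPKM in embryos. Its relative Runx2 had 42.5 and 48.6 FPKM in cumulus cells, against 1.38 and 1.49 FPKM in embryos. All of these were higher in cumulus cells. They had no overlap between the groups, like 12394 of the 13452 genes tested. Among the epidermal growth factor ligands, Btc had 10.1 and 7.14 FPKM in cumulus cells, against 0.0275 and 0.0963 FPKM in embryos, Ereg had 1.76 and 1.76 FPKM in cumulus cells, against 0.0140 and 0 FPKM in embryos, and Areg did not pass the filter at 0.0313 and 0.567 FPKM in cumulus cells, against 0.0369 and 0 FPKM in embryos. Their receptor Egfr was lower, at 2.14 and 2.46 FPKM in cumulus cells, against 10.8 and 9.95 FPKM in embryos (-1.78, SE 0.27). Pgr, the progesterone receptor, did not pass the filter.

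Genes of the expansion matrix were higher in cumulus cells. Of 12 genes 11 were tested, 10 were higher and none was lower, with a median of 3.53; Ccl2 was not called. Tnfaip6, which transfers protein chains onto hyaluronan, had 181 and 225 FPKM in cumulus cells, against 0.0921 and 0.0566 FPKM in embryos (7.56, SE 0.19). Ptx3, the pentraxin that links those chains, had 16.8 and 11.6 FPKM in cumulus cells, against 0.0214 and 0.0346 FPKM in embryos. Vcan, the large proteoglycan versican, had 37.8 and 44.4 FPKM in cumulus cells, against 0.0134 and 0.0575 FPKM in embryos. Has2, the hyaluronan synthase itself, was low at 1.44 and 1.44 FPKM in cumulus cells, against 0.0947 and 0.132 FPKM in embryos, and Hapln1, a link protein, had 2.72 and 2.013 FPKM in cumulus cells, against 0 and 0 FPKM in embryos. Adamts1, the protease that cleaves versican, had 18.8 and 65.96 FPKM in cumulus cells, against 0 and 0.00423 FPKM in embryos, and by ratio its cumulus libraries were further apart than those of any other member. Sdc4, a heparan sulphate carrier of the cell surface, was the most abundant member in cumulus cells, with 1469 and 1624 FPKM in cumulus cells, against 0.139 and 0.123 FPKM in embryos. Its relative Sdc1 had 181 and 174 FPKM in cumulus cells, against 15.2 and 13.7 FPKM in embryos.

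Basement membrane, integrin and cytoskeletal genes were also high in cumulus cells. In the list of extracellular matrix and adhesion genes 26 of 31 were tested, 22 were higher and 4 lower, with a median of 2.76. Sparc, a matrix glycoprotein, had 390.0 and 393 FPKM in cumulus cells, against 0.176 and 0.265 FPKM in embryos, and Col4a1, a chain of basement membrane collagen, had 23.8 and 41.7 FPKM in cumulus cells, against 0.445 and 0.281 FPKM in embryos. The fibrillar collagen genes Col1a1, Col1a2 and Col3a1 did not reach the filter, with Col1a1 at 0.0208 and 0.126 FPKM in cumulus cells, against 0.00819 and 0.0441 FPKM in embryos. The 4 lower members were Itga6, Cdh1, Plat and Lamb1, of which Lamb1 lost its call when any 1 of the 4 libraries was left out. Itga6, an integrin of the egg surface, had 1.24 and 2.91 FPKM in cumulus cells, against 28.8 and 29.9 FPKM in embryos, and Cdh1, the cadherin of early embryos, had 0.0518 and 0.104 FPKM in cumulus cells, against 7.49 and 7.47 FPKM in embryos. In the cytoskeleton list 23 of 25 tested genes were higher and 1 was lower, with a median of 3.18. Tagln2, an actin-binding protein, had 294 and 280.1 FPKM in cumulus cells, against 0.0156 and 0.0168 FPKM in embryos, and the intermediate filament gene Vim had 153 and 312 FPKM in cumulus cells, against 0.124 and 0.146 FPKM in embryos. The lower member, Tubb2a, shares 49.0% of its stretches with other tubulin genes and is uncertain.

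Glucose metabolism was weighted to cumulus cells, and the 2 lactate dehydrogenase genes were split. Of 22 genes 21 were tested, 18 were higher and 2 lower, with a median of 1.91. Aldoa, the fructose bisphosphate aldolase, had 1077 and 634 FPKM in cumulus cells, against 15.7 and 16.003 FPKM in embryos (5.62, SE 0.20). Tpi1, triose phosphate isomerase, had 189.7 and 139 FPKM in cumulus cells, against 6.46 and 6.53 FPKM in embryos. Ldha, the dehydrogenase form that favours lactate, had 275 and 229 FPKM in cumulus cells, against 0.648 and 0.195 FPKM in embryos (7.49, SE 0.21). Ldhb, the form that favours pyruvate, had 29.7 and 22.3 FPKM in cumulus cells, against 1012 and 991 FPKM in embryos (-5.23, SE 0.23). So each form was abundant where the other was low. Slc2a1, a glucose transporter, had 18.2 and 17.2 FPKM in cumulus cells, against 9.18 and 8.46 FPKM in embryos, and its call was lost without the first cumulus or the second embryo library. Eno1, Pgk1, Pgam1, Pkm2 and Gapdh share over 30% of their stretches with copies and are uncertain.

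Nuclear-encoded genes of the respiratory chain and of the ribosome were higher in cumulus cells too. Of 74 tested oxidative phosphorylation subunits of 75 listed, 63 were higher and 2 lower, with a median of 2.78. Cox4i1, a subunit of cytochrome oxidase, had 637 and 528 FPKM in cumulus cells, against 34.9 and 41.9 FPKM in embryos, and Ndufa3, of complex I, had 517 and 494 FPKM in cumulus cells, against 9.99 and 13.8 FPKM in embryos. The lower members were Sdha, of complex II, at 29.1 and 28.7 FPKM in cumulus cells, against 54.4 and 51.2 FPKM in embryos, and Ndufa10 at 13.3 and 16.2 FPKM in cumulus cells, against 25.8 and 25.1 FPKM in embryos, which was not called without the first cumulus library. Of 77 tested cytosolic ribosomal protein genes of 78 listed, 72 were higher and none was lower, with a median of 2.59. In that list 56 genes share over 30% of their stretches with copies, and of the other 21 genes 19 were higher, with a median of 4.19. Rps3 had 358 and 319 FPKM in cumulus cells, against 1.13 and 0.851 FPKM in embryos, with both cumulus libraries far above the embryo libraries.

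Immediate early genes, which answer stimulation within minutes, were present in cumulus cells and low in embryos. Of 24 genes 22 were tested, 21 were higher and none was lower, with a median of 3.60; Klf4 was not called. Fos, a subunit of the AP-1 transcription factor, had 73.4 and 86.3 FPKM in cumulus cells, against 0.905 and 0.534 FPKM in embryos (5.56, SE 0.23). Fosl2, its relative, had 76.01 and 122 FPKM in cumulus cells, against 0.130 and 0.157 FPKM in embryos, and Ier3 had 598 and 419 FPKM in cumulus cells, against 0.124 and 0.446 FPKM in embryos. Btg2, an antiproliferative gene, had 178 and 171 FPKM in cumulus cells, against 5.84 and 6.28 FPKM in embryos. Dusp1, a phosphatase of MAP kinases, was the one abundant in embryos as well, at 42.1 and 75.6 FPKM in cumulus cells, against 36.97 and 36.5 FPKM in embryos (0.61, SE 0.24, adjusted p = 0.036). This call was lost without the second cumulus library, where the difference was 0.19, and without either embryo library. The promoters of this list were searched on both strands for TGACGT, the core of the cAMP response element, since luteinising hormone signals through cAMP. In the RefSeq promoter table (build GRCm38.p6, from 250 bases before to 50 after the annotated start) 17 of the 24 genes matched and 5 held the motif, or 29.4%, against 8.37% of 27025 genes with a promoter. The 5 were Fos, Egr2, Atf3, Dusp1 and Btg2, of which Atf3 did not pass the filter. The promoters of 3 of them are shown because their genes had both small and large differences, with the motif in capitals on either strand; a palindromic copy is counted on each strand.
Fos, chr12:85473640-85473939, plus strand: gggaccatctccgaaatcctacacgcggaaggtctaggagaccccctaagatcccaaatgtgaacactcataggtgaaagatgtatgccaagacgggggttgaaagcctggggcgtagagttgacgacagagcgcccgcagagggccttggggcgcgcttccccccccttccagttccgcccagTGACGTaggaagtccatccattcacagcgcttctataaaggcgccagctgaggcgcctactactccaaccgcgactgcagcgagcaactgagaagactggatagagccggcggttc
Btg2, chr1:134079106-134079405, minus strand: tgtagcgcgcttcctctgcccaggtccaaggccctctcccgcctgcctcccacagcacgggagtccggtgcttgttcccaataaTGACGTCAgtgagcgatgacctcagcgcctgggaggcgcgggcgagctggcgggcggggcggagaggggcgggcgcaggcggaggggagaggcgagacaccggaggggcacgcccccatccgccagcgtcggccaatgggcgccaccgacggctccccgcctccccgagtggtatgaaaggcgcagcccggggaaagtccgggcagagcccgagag
Dusp1, chr17:26508423-26508722, minus strand: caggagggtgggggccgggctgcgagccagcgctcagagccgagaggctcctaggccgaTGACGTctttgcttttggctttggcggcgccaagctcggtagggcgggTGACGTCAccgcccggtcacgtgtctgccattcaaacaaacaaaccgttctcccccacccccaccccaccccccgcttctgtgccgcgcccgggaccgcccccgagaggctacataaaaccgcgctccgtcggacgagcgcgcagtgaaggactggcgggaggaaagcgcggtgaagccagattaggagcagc
The motif in Fos begins 66 bases before the start. Among genes at least 10-fold higher in cumulus cells 11.2% of 667 with a promoter held the motif, and among those at least 10-fold lower 8.25% of 667 did. The motif AAGGTCA, bound by Nr5a1 and Nr5a2, was in none of 12 matched steroid synthesis promoters and in 5.38% of all genes with a promoter. At that share 12 promoters are too few to show a lack, and the promoter of Star was not available. Matches are descriptions of these windows only.

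Of the signals exchanged between oocyte and cumulus cell, some ligands and receptors lay on opposite sides and others did not. Of 28 genes 27 were tested, 13 were higher and 13 lower in cumulus cells, with a median of -0.0015. Of all genes tested 42.4% were higher and 35.5% lower. The oocyte growth factor Gdf9 (chromosome 11, 53246788 to 53251404, mm9) had 0.234 and 0.235 FPKM in cumulus cells, against 134 and 135 FPKM in embryos (-6.78, SE 0.23, adjusted p = 8.7e-11). Its partner Bmp15 had 0.283 and 0.395 FPKM in cumulus cells, against 1198 and 1251 FPKM in embryos (-9.84, SE 0.21). Bmp6 had 3.14 and 2.52 FPKM in cumulus cells, against 6.31 and 6.76 FPKM in embryos, and Fgf8 was listed at 0 in both cumulus libraries, against 2.76 and 3.52 FPKM in embryos. All 4 oocyte factors were lower in cumulus cells, but Bmp6 was present there.

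Their receptors were divided. Tgfbr1, the type I receptor that serves Gdf9, had 52.1 and 68.95 FPKM in cumulus cells, against 2.95 and 3.25 FPKM in embryos (3.90, SE 0.18). Bmpr1a had 17.95 and 21.2 FPKM in cumulus cells, against 3.10 and 3.25 FPKM in embryos, and Acvr1 had 4.58 and 4.64 FPKM in cumulus cells, against 1.00 and 1.16 FPKM in embryos. These were higher in cumulus cells. Their libraries did not overlap between the groups, as for 12394 of the 13452 genes tested. Bmpr2, the type II receptor for Gdf9 and Bmp15, had 10.8 and 12.8 FPKM in cumulus cells, against 24.6 and 22.95 FPKM in embryos (-0.96, SE 0.15), and Bmpr1b had 10.96 and 10.6 FPKM in cumulus cells, against 30.8 and 27.4 FPKM in embryos. Both were present in cumulus cells yet lower there. Fgfr1 was higher at 3.33 and 3.17 FPKM in cumulus cells, against 1.14 and 1.78 FPKM in embryos, whereas Fgfr2 was not called, at 1.29 and 2.34 FPKM in cumulus cells, against 1.76 and 1.78 FPKM in embryos.

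Kit, the receptor that the oocyte carries for the granulosa factor Kit ligand, had 0.113 and 0.266 FPKM in cumulus cells, against 28.03 and 26.8 FPKM in embryos (-4.58, SE 0.18). The ligand gene Kitl was low in all libraries, at 0.695 and 1.90 FPKM in cumulus cells, against 2.96 and 2.55 FPKM in embryos (-0.76, SE 0.25, adjusted p = 0.014). The call was lost without the first cumulus library (-0.37) and without the first embryo library (-0.68). In the arrest of meiosis, cumulus cells make cyclic GMP through Npr2, which had 5.57 and 7.202 FPKM in cumulus cells and was listed at 0 in both embryo libraries. Its ligand gene Nppc, of mural granulosa cells, had 0.0743 and 0.0748 FPKM in cumulus cells, against 0.723 and 0.849 FPKM in embryos, a call that was lost without either cumulus library or the second embryo library. On the oocyte side, Gpr3, which keeps cAMP high, had 0.0643 and 0.129 FPKM in cumulus cells, against 11.7 and 11.4 FPKM in embryos, and Pde3a, which degrades cAMP, was listed at 0 in both cumulus libraries, against 4.75 and 4.46 FPKM in embryos. Npr2 was the higher in cumulus cells, Gpr3 and Pde3a were the higher in embryos, and Nppc was under 1 FPKM throughout.

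The inhibin and activin subunit genes were high in cumulus cells. Inha had 189.7 and 117 FPKM, Inhba 119 and 185 FPKM and Inhbb 4.66 and 5.91 FPKM in cumulus cells, and all 3 were listed at 0 in both embryo libraries. Fst, the activin-binding follistatin, had 86.2 and 83.3 FPKM in cumulus cells, against 0.241 and 0.0650 FPKM in embryos (6.22, SE 0.19). Amhr2, the receptor of anti-Müllerian hormone, had 14.05 and 10.7 FPKM in cumulus cells, against 0.0211 and 0 FPKM in embryos, while Amh itself did not pass the filter at 0.0640 and 0 FPKM in cumulus cells, against 0 and 0 FPKM in embryos. Jag1, a Notch ligand, had 10.6 and 10.5 FPKM in cumulus cells, against 91.04 and 90.9 FPKM in embryos (-2.99, SE 0.17), and the receptor Notch2 had 34.6 and 35.3 FPKM in cumulus cells, against 0.532 and 0.363 FPKM in embryos (4.64, SE 0.17). The pair ran in opposite directions, as did the connexins. Gja1 (chromosome 10, 56097106 to 56110225, mm9), the connexin of junctions between cumulus cells, had 2031 and 2056 FPKM in cumulus cells, against 0.742 and 0.635 FPKM in embryos (10.24, SE 0.20), and Gja4, the connexin of junctions with the oocyte, had 0.702 and 0.243 FPKM in cumulus cells, against 17.3 and 19.8 FPKM in embryos (-3.74, SE 0.38). Slc38a3, an amino acid carrier that cumulus cells use on behalf of the oocyte, had 1.32 and 1.18 FPKM in cumulus cells, against 0.00822 and 0 FPKM in embryos.

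**Figure D2:**
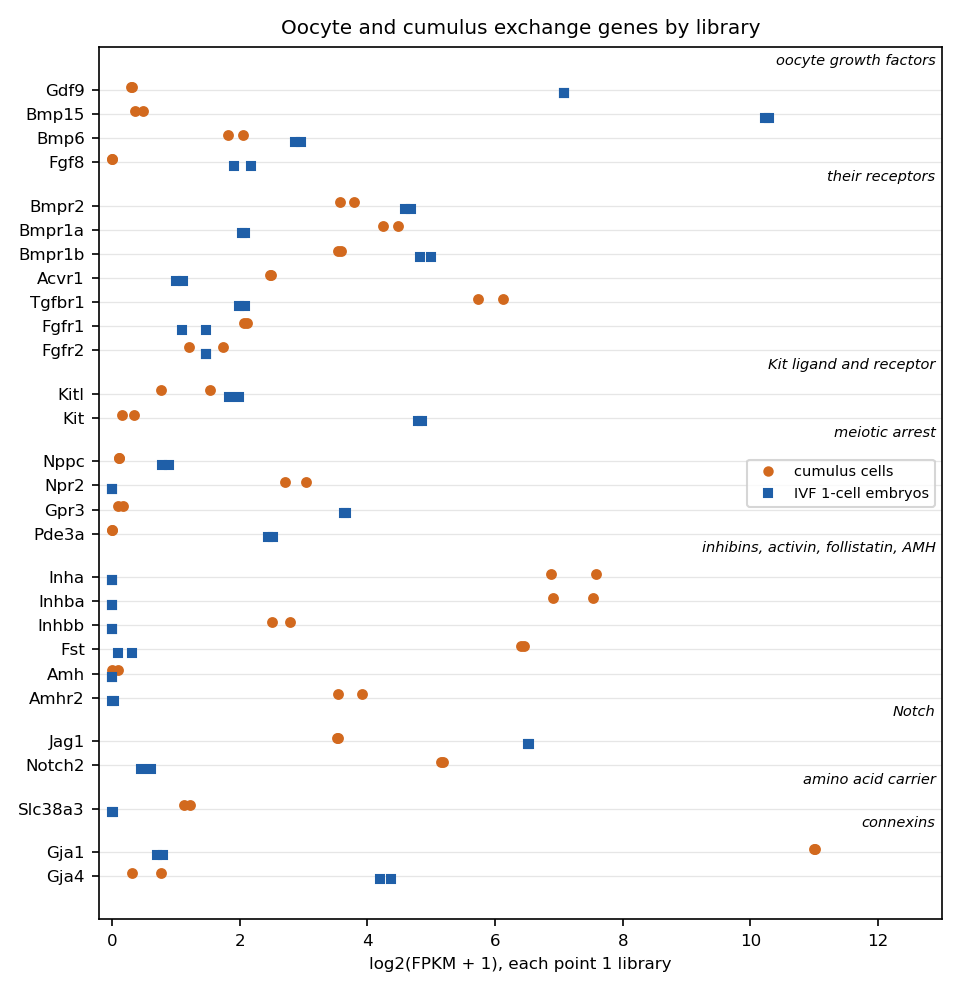
Levels of the 28 exchange genes as log2(FPKM + 1), a point for each library, with cumulus cells as orange circles above the line of each gene and IVF 1-cell embryos as blue squares below it. Gdf9, Bmp15, Kit, Gpr3, Jag1 and Gja4 lie to the right in embryos, and Tgfbr1, Npr2, Inha, Inhba, Fst, Notch2 and Gja1 lie to the right in cumulus cells.

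The genes with the greatest negative differences were led by known oocyte transcripts. Btg4 (chromosome 9, 50924106 to 50927805, mm9), which brings the deadenylase complex to maternal messenger RNA, had 0.591 and 0.510 FPKM in cumulus cells, against 5375 and 5248 FPKM in embryos (-11.74, SE 0.34, adjusted p = 3.4e-11). Bcl2l10, an oocyte member of the Bcl2 family, had 0.213 and 0.276 FPKM in cumulus cells, against 3972 and 3735 FPKM in embryos (-11.60, SE 0.39). Dppa3 (chromosome 6, 122576442 to 122580289, mm9), which protects the maternal genome from demethylation, was the most abundant gene of the embryos, at 3.55 and 4.29 FPKM in cumulus cells, against 8951 and 9051 FPKM in embryos. In cumulus cells the levels were under 1 FPKM for Btg4 and Bcl2l10 and above it for Dppa3. The list continued with Rfpl4, a RING finger gene, at 0.251 and 0.128 FPKM in cumulus cells, against 3066 and 2929 FPKM in embryos, with Tcl1, a co-activator of the Akt kinase, at 0.917 and 1.08 FPKM in cumulus cells, against 3819.9 and 3572 FPKM in embryos, and with the F-box gene Fbxw24 at 0.0484 and 0.122 FPKM in cumulus cells, against 2058 and 2158 FPKM in embryos. Obox5, an oocyte homeobox gene, had 0.140 and 0.0849 FPKM in cumulus cells, against 1237 and 1212 FPKM in embryos, and Oas1d, a relative of the oligoadenylate synthetases, had 0.0204 and 0.0205 FPKM in cumulus cells, against 988 and 969 FPKM in embryos. The unnamed transcripts E330034G19Rik, E330021D16Rik, C86187, Gm97 and D6Ertd527e belonged to the same group, each at over 1000 FPKM in both embryo libraries and under 2 FPKM in both cumulus libraries. Other abundant embryo transcripts had clear cumulus levels. Pttg1, the securin of chromosome separation, had 60.5 and 68.6 FPKM in cumulus cells, against 7582 and 7473 FPKM in embryos, and Spin1, the spindle-associated spindlin, had 81.7 and 77.97 FPKM in cumulus cells, against 4118 and 3888 FPKM in embryos. Omt2b, with 50.7% shared stretches, and Oog3, of a family and with 18.7%, are uncertain.

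Most tested genes of the egg coat and fertilisation list were lower in cumulus cells. Of 12 genes 11 were tested, 7 were lower and 3 higher in cumulus cells, with a median of -3.72. Among genes of the zona pellucida, the coat of the egg, Zp2 had 0.0312 and 0.141 FPKM in cumulus cells, against 31.4 and 32.9 FPKM in embryos, and Zp3, which binds sperm, had 0.0559 and 0.169 FPKM in cumulus cells, against 22.2 and 20.9 FPKM in embryos. Zp1 was listed at 0 in both cumulus libraries, against 12.6 and 11.8 FPKM in embryos. Folr4, the Juno receptor for sperm, had 0.115 and 0 FPKM in cumulus cells, against 43.8 and 44.2 FPKM in embryos (-5.41, SE 0.32). Oosp1, an oocyte secreted protein, had 0.372 and 0.421 FPKM in cumulus cells, against 1403 and 1330.0 FPKM in embryos. The 3 higher members are not limited to eggs: Cd9, a tetraspanin needed for fusion, had 213 and 159 FPKM in cumulus cells, against 37.1 and 36.3 FPKM in embryos, Mfge8 had 44.02 and 49.3 FPKM in cumulus cells, against 0.0203 and 0.0437 FPKM in embryos, and Ubr2 had 5.81 and 5.78 FPKM in cumulus cells, against 1.33 and 1.35 FPKM in embryos. Itpr1, the calcium channel that carries the egg's calcium waves, was not called (-0.07, SE 0.16). E-boxes (CANNTG), the element through which the factor Figla acts on zona genes, were in 6 of 7 matched promoters of the list. They were in 74.99% of all genes with a promoter. The 6 were Zp3, Oosp1, Astl, Cd9, Mfge8 and Pla2g4c, so that Zp3 was the only zona pellucida gene among them. Promoters of Zp1 and Zp2 were not available. The promoters of Zp3 and Bmp15 are shown because both genes are among the oocyte markers set beside the labels. E-boxes are in capitals.
Zp3, chr5:135979855-135980154, plus strand: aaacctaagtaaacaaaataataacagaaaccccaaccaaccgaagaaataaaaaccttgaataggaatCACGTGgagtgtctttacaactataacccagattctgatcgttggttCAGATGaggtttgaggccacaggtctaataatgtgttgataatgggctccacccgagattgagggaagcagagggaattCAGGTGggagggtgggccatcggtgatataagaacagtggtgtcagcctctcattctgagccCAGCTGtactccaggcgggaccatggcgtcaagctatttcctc
Bmp15, chrX:6320675-6320974, minus strand: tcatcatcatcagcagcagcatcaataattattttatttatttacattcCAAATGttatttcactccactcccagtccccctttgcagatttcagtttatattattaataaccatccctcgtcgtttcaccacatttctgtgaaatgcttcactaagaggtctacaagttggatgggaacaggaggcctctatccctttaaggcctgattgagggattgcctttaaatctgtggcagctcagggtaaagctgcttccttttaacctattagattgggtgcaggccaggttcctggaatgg
The Zp3 window held 4 E-boxes and the Bmp15 window 1.

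Transcription factors of the oocyte were lower in cumulus cells. Of 18 genes 17 were tested, 15 were lower and none was higher, with a median of -4.22. Nobox, needed for growth of the follicle, had 0.0184 and 0.130 FPKM in cumulus cells, against 75.02 and 73.1 FPKM in embryos (-6.13, SE 0.43). Sall4, a zinc finger factor of oocytes and stem cells, had 0.174 and 0.163 FPKM in cumulus cells, against 273 and 280.4 FPKM in embryos, and Zfp57, which keeps imprints, had 1.78 and 2.40 FPKM in cumulus cells, against 1092 and 1446 FPKM in embryos. Figla was low on both sides, at 0 and 0.451 FPKM in cumulus cells, against 2.58 and 3.13 FPKM in embryos, and Pou5f1 had 0.0271 and 0.0273 FPKM in cumulus cells, against 7.57 and 9.27 FPKM in embryos. Obox1 and Obox2 share over 30% of their stretches and are uncertain. The core TAATTG, bound by Nobox, was in none of 15 matched promoters of this list and in 9.22% of all genes with a promoter. At that share 15 promoters are too few to show a lack.

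The subcortical maternal complex, a protein lattice under the egg surface, and the Nlrp family were the list with the lowest median. Of 17 genes 15 were tested and all 15 were lower, with a median of -7.29. Zbed3 had 2.14 and 2.06 FPKM in cumulus cells, against 1591 and 1541 FPKM in embryos, Ooep had 0.466 and 0.563 FPKM in cumulus cells, against 424 and 456 FPKM in embryos (-8.19, SE 0.21), and Nlrp5 (MATER) had 0.0191 and 0.135 FPKM in cumulus cells, against 134 and 140.2 FPKM in embryos. Nlrp4f had 0.0469 and 0.0472 FPKM in cumulus cells, against 525 and 505 FPKM in embryos. Tle6, another part of the complex, was the least different, at 8.03 and 7.59 FPKM in cumulus cells, against 25.9 and 28.1 FPKM in embryos (-1.67, SE 0.25).

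Storage and decay of messenger RNA gave 16 lower and 3 higher members of 22 tested, with a median of -3.38. Dazl, a translational regulator of germ cells, had 0.854 and 1.71 FPKM in cumulus cells, against 446 and 448 FPKM in embryos (-7.64, SE 0.19). Zar1l was listed at 0 in both cumulus libraries, against 96.3 and 83.2 FPKM in embryos, and Cpeb1, which controls the poly(A) tail, had 0.0754 and 0.0434 FPKM in cumulus cells, against 17.2 and 17.3 FPKM in embryos. The deadenylase gene Cnot6l had 13.6 and 13.98 FPKM in cumulus cells, against 306 and 296 FPKM in embryos. Cnot7, another deadenylase, had 30.8 and 37.6 FPKM in cumulus cells, against 417 and 409 FPKM in embryos. Cnot1, the scaffold of the same complex, was not called (-0.19, SE 0.27). Dcp2, the decapping enzyme, had 0.942 and 1.40 FPKM in cumulus cells, against 27.8 and 28.9 FPKM in embryos, and its partner Dcp1a had 1.76 and 1.84 FPKM in cumulus cells, against 24.3 and 21.7 FPKM in embryos. Zcchc11, a terminal uridylyltransferase, was higher at 27.3 and 25.6 FPKM in cumulus cells, against 0.359 and 0.183 FPKM in embryos, whereas Zcchc6, its relative, was not called (-0.10, SE 0.19).

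Genes of the meiotic division were lower in cumulus cells or not called. Of 22 tested genes 18 were lower and none was higher, with a median of -3.24. Wee2, the oocyte form of the kinase that restrains Cdk1, had 0.105 and 0.140 FPKM in cumulus cells, against 274 and 261 FPKM in embryos (-7.90, SE 0.27). Mad2l1, of the spindle checkpoint, had 10.1 and 10.1 FPKM in cumulus cells, against 437 and 445 FPKM in embryos, and Mos, which holds the egg at metaphase, had 0.0250 and 0 FPKM in cumulus cells, against 5.36 and 5.72 FPKM in embryos. Cdk1 itself was at 18.6 and 17.2 FPKM in cumulus cells, against 23.2 and 24.9 FPKM in embryos, and was not called (-0.41, SE 0.24). Ccnb1 and Aurkc are uncertain, with 42.2% and 64.0% of their stretches shared.

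Chromatin genes held in the maternal store were lower, with exceptions. Of 22 tested genes 15 were lower and 4 higher, with a median of -2.14. Of the higher members, Hira and Hdac1 share 64.0% and 58.8% of their stretches with other genes and are uncertain; without them 2 were higher, and the median was -3.33. Ezh2, the Polycomb methylase of histone H3K27, had 9.22 and 10.96 FPKM in cumulus cells, against 368 and 393 FPKM in embryos. Its partners Eed and Suz12 were lower too. Eed had 15.9 and 13.8 FPKM in cumulus cells, against 208 and 207 FPKM in embryos, and Suz12 had 16.5 and 18.2 FPKM in cumulus cells, against 203 and 207 FPKM in embryos. Tet3, the dioxygenase that acts on the paternal genome after fertilisation, had 6.79 and 8.54 FPKM in cumulus cells, against 77.95 and 75.7 FPKM in embryos (-3.17, SE 0.19), and Tet2 had 8.70 and 9.03 FPKM in cumulus cells, against 0.381 and 0.569 FPKM in embryos (2.74, SE 0.18). Dnmt1, the maintenance DNA methylase, had 1.90 and 1.96 FPKM in cumulus cells, against 41.04 and 39.01 FPKM in embryos. Trim28, the co-repressor that Zfp57 recruits, was higher at 19.8 and 21.4 FPKM in cumulus cells, against 9.09 and 10.8 FPKM in embryos. Writers, erasers and readers of H3K9 methylation went both ways, with 8 higher, 8 lower and 3 not called of 19 tested and a median of 0.06, where 42.4% of all genes tested were higher and 35.5% lower. Among the writers Suv39h2 had 0.475 and 0.706 FPKM in cumulus cells, against 41.2 and 40.3 FPKM in embryos (-4.72, SE 0.16), and Ehmt2 had 4.24 and 2.72 FPKM in cumulus cells, against 0.0416 and 0.0224 FPKM in embryos (2.10, SE 0.19). Among the demethylases Jmjd1c had 34.6 and 33.4 FPKM in cumulus cells, against 2.22 and 2.20 FPKM in embryos, Kdm4c had 9.84 and 9.40 FPKM in cumulus cells, against 0.106 and 0.144 FPKM in embryos, and Kdm4a was lower at 1.27 and 1.37 FPKM in cumulus cells, against 5.59 and 6.06 FPKM in embryos. Kdm4d, the demethylase the study overexpressed in other embryos, was low in all 4 libraries at 0.152 and 0.102 FPKM in cumulus cells, against 0.127 and 0.0322 FPKM in embryos, and was not called.

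Linker histone genes were split between the groups. H1foo, the oocyte form, had 0.0684 and 0.345 FPKM in cumulus cells, against 618 and 565 FPKM in embryos (-8.95, SE 0.25), and Hist1h1a had 2.12 and 1.73 FPKM in cumulus cells, against 137 and 133 FPKM in embryos. Hist1h1c had 29.8 and 48.1 FPKM in cumulus cells, against 0.0677 and 0.204 FPKM in embryos (5.10, SE 0.37), and H1f0 had 14.03 and 18.2 FPKM in cumulus cells, against 10.9 and 9.47 FPKM in embryos (0.61, SE 0.21, adjusted p = 0.021). The call of H1f0 was lost without the second library of either group. Of 9 listed genes 7 were tested, 5 were higher and 2 lower, where 42.4% of all genes tested were higher and 35.5% lower. The X inactivation RNA Xist had 7.58 and 10.1 FPKM in cumulus cells, against 0.0485 and 0.0631 FPKM in embryos, and Tsix, transcribed from the opposite strand of the same locus, had 8.21 and 5.45 FPKM in cumulus cells, against 0.149 and 0.133 FPKM in embryos. The labels do not say that strand was used in counting, so reads of these overlapping genes cannot be told apart.

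Some related genes, entered as an oocyte form and a widely expressed form, divided between the groups. The members were chosen with earlier results of these data known, so the counts are not an independent check. Some genes entered as oocyte forms, such as Ldhb, Cnot6l and Tet3, were also present in cumulus cells. Of 22 pairs 9 had the somatic form higher and the oocyte form lower in cumulus cells: Gja1 and Gja4, Ybx1 and Ybx2, Pabpc1 and Pabpc1l, Cnot6 and Cnot6l, Btg1 and Btg4, H1f0 and H1foo, Ldha and Ldhb, Tet2 and Tet3, and Rpl39 and Rpl39l. In 7 pairs both members were lower, in the pair Zfp36 and Zfp36l2 both were higher, and 5 pairs had a member that was not called. The call of Cnot6 was lost without the second cumulus library or either embryo library. The oocyte form was lower in 19 of the 22 pairs and the somatic form higher in 11. Among all genes tested 35.5% were lower and 42.4% higher. The somatic form was the more abundant of the pair in cumulus cells in 22 of 22 pairs, and the oocyte form was the more abundant in embryos in 13 of 22. Pabpc1, the cytoplasmic poly(A)-binding protein, had 83.4 and 87.9 FPKM in cumulus cells, against 0.548 and 0.620 FPKM in embryos, and Pabpc1l had 0.217 and 0.234 FPKM in cumulus cells, against 13.1 and 14.9 FPKM in embryos. Rpl39 had 189 and 209.7 FPKM in cumulus cells, against 3.55 and 4.03 FPKM in embryos, and its copy Rpl39l had 0 and 0.156 FPKM in cumulus cells, against 32.4 and 31.3 FPKM in embryos. Ybx1, a packaging protein of messenger RNA, had 128 and 141 FPKM in cumulus cells, against 32.04 and 28.02 FPKM in embryos, and Ybx2, its germ cell relative, was listed at 0 in both cumulus libraries, against 13.99 and 15.2 FPKM in embryos. Eif4e, the cap-binding protein, had 23.2 and 19.8 FPKM in cumulus cells, against 62.1 and 66.1 FPKM in embryos, so that the widely expressed form was lower in cumulus cells together with Eif4e1b at 0.0949 and 0 FPKM in cumulus cells, against 68.3 and 62.3 FPKM in embryos. Slc2a3 and Rec8, entered as oocyte forms, were under 1 FPKM in all 4 libraries.

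**Figure D3:**
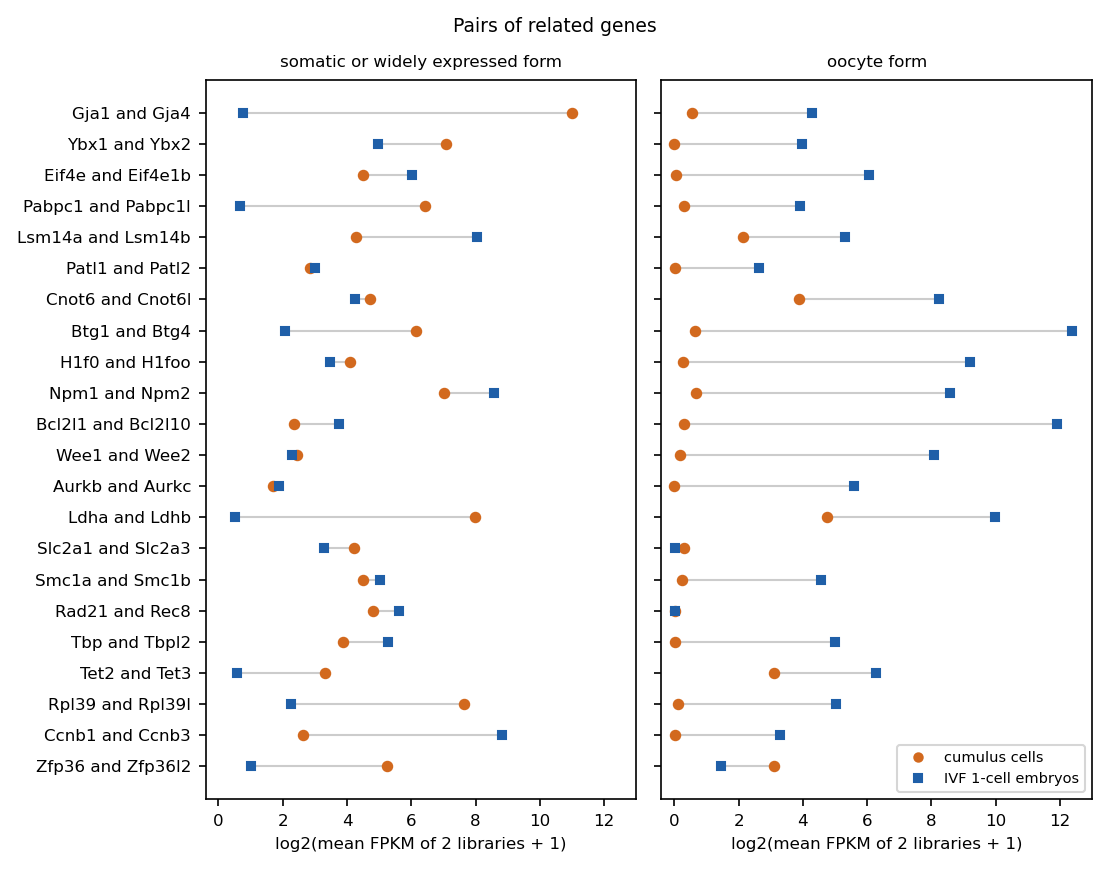
Levels of 22 pairs of related genes as log2(mean FPKM of 2 libraries + 1). The widely expressed form is on the left panel and the form entered as the oocyte form on the right. Cumulus cells are orange circles and IVF 1-cell embryos are blue squares; in the right panel the square lies to the right of the circle in 19 pairs by the test.

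A common set of abundant transcripts remained. Means of 100 FPKM or more were found for 399 genes in cumulus cells and 575 in embryos, and 90 genes reached it in both. Of the 90 genes 32 differed by less than 0.5 on the log2 scale. The following were chosen after their values were seen. Ywhaz, an adaptor protein of kinase signalling, had 764 and 695 FPKM in cumulus cells, against 647 and 617 FPKM in embryos (0.21, SE 0.22, adjusted p = 0.42). Sod1, the cytosolic superoxide dismutase, had 603 and 607 FPKM in cumulus cells, against 522 and 474 FPKM in embryos (0.28, SE 0.17, adjusted p = 0.15). Calm2, a calmodulin gene, was not called either (0.30, SE 0.17). All 3 were called higher when the libraries were brought to the same sum or quantiles, with differences of 0.62, 0.70 and 0.72 for Ywhaz, Sod1 and Calm2 at the same sum. A p that misses the threshold does not show that the levels are equal.

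**Figure D4:**
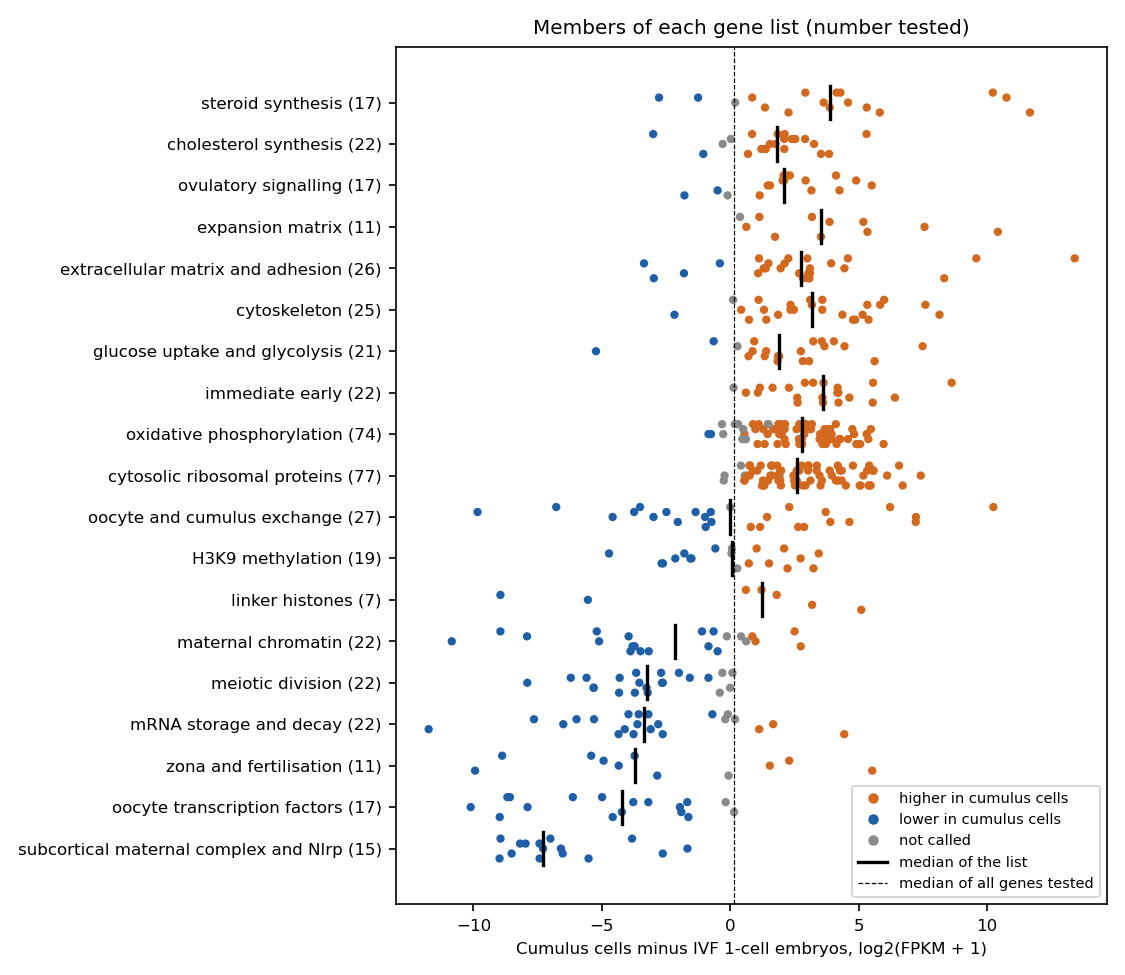
Each point is a tested member of a gene list, placed by its difference in log2(FPKM + 1), cumulus cells minus IVF 1-cell embryos; orange is higher, blue lower and grey not called at an adjusted p of 0.05. Black bars are list medians, which run from 3.87 for steroid synthesis to -7.29 for the subcortical maternal complex and Nlrp genes, against a dashed line at 0.13 for all genes tested.

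The other embryo groups place these genes in the study. In SCNT 1-cell embryos, which received a cumulus nucleus, Spp1 averaged 24.97 FPKM and Akr1c18 31.3 FPKM, and Btg4 averaged 4402 FPKM. In IVF 2-cell embryos Gja1 had 63.9 and 53.9 FPKM and Gm2a 140.2 and 135 FPKM, and Cyp11a1 had 0.977 and 2.63 FPKM, so that some genes abundant in cumulus cells were also found in 2-cell embryos and others stayed low. Btg4 had 865 and 920.3 FPKM and E330021D16Rik 100.3 and 94.3 FPKM in IVF 2-cell embryos.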

How the data were processed

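Per the labels' protocols, SMARTer cDNA was made from lysed material, and single-end reads of 50 bases were sequenced. Per the submitters' processing notes, Novoalign (version not given) and Cufflinks 2.0.2 were used on mm9. The authors' deposited table holds FPKM for 23697 rows. The sources used here state neither the annotation nor how multiply mapping reads were handled. FPKM are relative to each library's total, and the read depth behind each value is unknown beyond the relative depth given above.

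From the table, 806 rows of short or ribosomal RNA were left out and 630 rows sharing a symbol were summed, which left 22491 symbols; 1 was added to each start. Values were taken as log2(FPKM + 1), a scale on which differences of genes near 0 are understated. Limma 3.58.1 in R 4.3.3 fitted 7 group means to 14 libraries (7 residual degrees of freedom, median prior 4.71, intensity trend), with Benjamini-Hochberg adjustment over 13452 genes at 0.05. With 200 genes changed in simulated data, 60% of those changed by 1 and 98% of those changed by 2 on the log2 scale were recovered. Of the simulated calls 5.39% were false. Only genes above 2 on the log2 scale in IVF 1-cell embryos were changed, and spread was equal in all groups. In the data 77.9% of genes were called, and the robust SD of replicates was 0.16 in cumulus cells and 0.09 in embryos. These rates therefore need not hold for the real comparison. Shared sequence was read from the longest coding transcript of each gene in GENCODE M21 (the longest of any kind for genes with no coding one), in 50-base stretches at every 10th base, for 13281 genes. Promoters were from RefSeq.

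Genes were named by rule: the 15 called genes with the greatest difference in each direction with a group mean of at least 5 FPKM and no overlap, the 10 most abundant of each group, up to 4 called members in each direction of each list, and all exchange genes and pairs. Other members named were chosen after their values were seen, and a few genes are not reported here. The members and lists were chosen with earlier results of these data known. Theca, endothelial, oviduct, red blood, sperm and Y-linked marker lists had 1, 3, 3, 1, 1 and 3 tested members, of which 0, 1, 1, 1, 0 and 0 were higher and 1, 1, 2, 0, 1 and 0 lower in cumulus cells.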

Additional observations from a re-analysis of the deposited data

How the results depend on the processing

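The count of genes higher in cumulus cells moved by over 1.5 times under 2 of the alternatives, and the count lower under 1 of them. With at least 5 FPKM in 2 libraries 8749 genes were tested and 3674 were higher, against 3673 lower; fewer genes tested account for part of this. At 10-fold or more the counts were 949 and 934, a rule chosen after seeing the data. At 2-fold or more they were 4619 and 3737. Leaving out 1 library at a time gave 5331 to 5357 higher and 4421 to 4458 lower; the lone library of a group is then assumed to vary like the other groups. Replicate numbers are shared between the groups but the deviations of same-numbered libraries did not move together (r = -0.07 over 6254 genes), and the fit with the replicate number as a block gave 5700 higher and 4771 lower. Scaling moved the balance. Quantile normalization gave 5207 higher and 5158 lower with a median difference of 0.02, and the same sum for all libraries gave 6303 and 4225 with a median of 0.51, against 0.13 as deposited, so that small differences are read relative to these shifts. Without genes of over 30% shared sequence, also chosen later, the counts were 5405 and 4554, and with no filter 6771 and 5274 of 21273 genes. A fit to the 4 libraries alone gave 6157 and 5202. For 254 named genes, 3467 of 3526 values kept direction and side of the threshold, 42 lost the call, 17 gained it and none reversed. Of 812 list counts 787 stayed within 1.5 times. The calls lost when scaled to the same sum were those of Kitl, Lamb1, Ndufa10, Rad21 and Smc1a. Ccl2 gained a call without the first cumulus library. The cause of these shifts was not tested.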

Other observations

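Neighbouring genes were compared by position, which was done after the values were seen. Among tested genes ordered along the mm9 chromosomes, 24.1% of the 933 placed genes at least 10-fold lower in cumulus cells had such a gene as a neighbour, against 13.2% of all 13440 placed genes. Of the 948 at least 10-fold higher, 18.0% had a neighbour of their kind, against 13.5% of all placed genes; neither difference was tested. The longest run held 10 F-box genes on chromosome 9, from 109119946 to 109648603: Fbxw20, Fbxw14, Fbxw28, Fbxw22, Fbxw16, Fbxw19, Fbxw15, Fbxw24, Fbxw18 and Fbxw26. Fbxw24 had 0.0484 and 0.122 FPKM in cumulus cells, against 2058 and 2158 FPKM in embryos. Fbxw14 and Fbxw28 share over 30% of their stretches with relatives and are uncertain. A run of 6 genes on chromosome 12, from 106385243 to 106460947, held Tcl1 and Tcl1b1 to Tcl1b5. Runs of 4 genes on chromosome 16 (Atp5j, Gabpa, App and Adamts1) and chromosome 9 (Nt5e, Snx14, Syncrip and Snhg5) were higher in cumulus cells, and there the members belong to different families.

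Base composition moved with the difference across genes. Among 13281 genes with an annotated transcript, split into 5 groups of equal size by GC content, the group with the lowest GC content (31.0 to 43.9%) had a median difference of -0.39, with 31.6% higher and 47.9% lower in cumulus cells. The group with the highest GC content (55.1 to 69.2%) had a median of 0.87, with 56.2% higher and 20.6% lower. The 3 groups between had medians of -0.13, 0.00 and 0.39, in rising order of GC. Transcript length moved less, with medians of 0.32 in the shortest and 0.01 in the longest of 5 groups of equal size. By chromosome, medians ran from 0.47 on chromosome 11, with 48.8% of 1070 genes higher, and 0.37 on chromosome 19, down to -0.13 on chromosome 18.

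Prm2, which encodes a protamine of sperm chromatin, had 0.0761 and 0 FPKM in cumulus cells, against 12.2 and 11.6 FPKM in embryos (-3.63, SE 0.46). Prm1, Tnp1 and Tnp2, also of the sperm list, were under 1 FPKM in all 4 libraries. H2-Aa, a class II histocompatibility gene, was lower in cumulus cells, at 0.108 and 0.580 FPKM in cumulus cells, against 16.7 and 13.7 FPKM in embryos, whereas its partner H2-Ab1 was higher, at 8.69 and 5.77 FPKM in cumulus cells, against 0.0557 and 0.0600 FPKM in embryos.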
